A study of Caenorhabditis elegans with 3 samples.

Results

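The genes described here serve synaptic release and transmitter supply in the nematode Caenorhabditis elegans. They comprise 35 named genes: 12 of the release machinery, 4 for the active zone, transport and calcium channels, 5 for acetylcholine, 1 for glutamate, 4 for GABA (γ-aminobutyric acid), 6 for monoamines and 3 for neuropeptide processing. The names were picked by function. Each gene was read by the probe sets that the array annotation gives to that gene alone, and the brightest of them over the 3 samples stood for the gene. All 35 were found, out of 17118 genes with such a probe set. RNA came from whole larvae of the wild-type strain N2 (Bristol), labelled as first larval stage (L1) in every group, from parents kept at 20 °C on Escherichia coli OP50. The heat shock group had been held at 30 °C for 24 h. The bio-electrospray group had been sprayed from a needle to which a voltage was applied, a procedure that turns a liquid carrying living material into a jet of droplets. The control group was untreated. The labels used here give no age beyond the stage, so whether the control larvae were as old as those held for 24 h is not known, and heat, time and age cannot be told apart in the heat shock values. Each group had 1 Affymetrix array, so no difference below has a replicate check and none carries a p-value. The design set sprayed larvae against untreated larvae, with heat shock as the positive control.

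Neurons release transmitter when calcium enters the terminal and a complex of SNARE proteins on the vesicle and on the plasma membrane pulls the membranes together. Small clear vesicles carry acetylcholine, GABA, glutamate or monoamines, each loaded by its own transporter after synthesis by its own enzymes, whereas dense-core vesicles carry neuropeptides cut from precursors by proteases. In the worm many of these genes were found through mutants that move poorly (unc), lay eggs badly (egl) or resist inhibitors of acetylcholinesterase (ric). RNA of the whole animal was measured, so more or fewer neurons and more or less RNA per neuron cannot be told apart.

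Levels are the deposited GCRMA values, on a log2 scale, where a difference of 1 is 2-fold. They ran from 1.81 to 13.96, with array medians of 3.19 for heat shock, 3.16 for bio-electrospray and 3.15 for control. Genes without detectable signal sit near a common floor, so a low level is only an upper limit and a fold from it depends on the background correction. A filter was set at the median gene's mean level over the 3 arrays (3.19): 22 of the 35 genes passed it and 13 did not. The mean includes the heat shock array, so a level high on that array alone can carry a gene past the filter. Of the 22, unc-46 alone had a control level below the filter. The 18 spike-in probe sets for transcripts added at hybridization had a median difference of −0.53 for heat shock minus control (range −1.07 to −0.15) and −0.19 for bio-electrospray minus control. The probe sets for the 5′ end of Gapdh and catalase were 0.72 and 0.83 higher on the heat shock than on the control array, against 0.03 and 0.06 for their 3′ ends. For actin and ubiquitin the 5′ ends differed by 0.11 and 0.50, and the 3′ ends by −0.03 and 0.39. The part of these offsets in the differences below was not tested.

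On the heat shock array, synaptic genes stood above the control by the most in neuropeptide processing and GABA supply. The carboxypeptidase gene egl-21 was 3.60-fold higher, the glutamate decarboxylase gene unc-25 2.82-fold, the proprotein convertase gene egl-3 2.51-fold, the GABA vesicle gene unc-46 2.19-fold and the calcium channel gene unc-2 2.01-fold. No gene was 2-fold lower, and the lowest differences were those of ace-1 (−0.97) and bas-1 (−0.89), an acetylcholinesterase and a monoamine synthesis gene. Of all 35 genes, 5 (14.3%) were 2-fold higher or more and none was 2-fold lower, where 4.69% and 4.33% of all genes were. Of the 22 genes above the filter, 5 (22.7%) were at least 2-fold higher, where 8.58% of all 8559 genes above it were, and 0 were at least 2-fold lower, where 8.56% of all were. One of these 5, unc-46, passed the filter only through its heat shock level, so its place in the filtered count follows from the difference counted. At 1.5-fold the counts were 10 higher and 2 lower, against 16.8% and 15.4% of all genes. By sign alone 19 of the 22 were higher and 2 lower, against 42.6% and 42.3% of all genes; over all 35 genes 23 were higher, 8 lower and 4 equal, against 27.8% higher and 58.6% lower among all 17118. The median difference over the 22 was 0.57, against 0 over all genes above the filter; over all 35 genes it was 0.33, against −0.02 over all 17118. With 1 array a group these figures describe these arrays only. The plot of levels by gene shows the 3 arrays side by side.

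**Figure D1:**
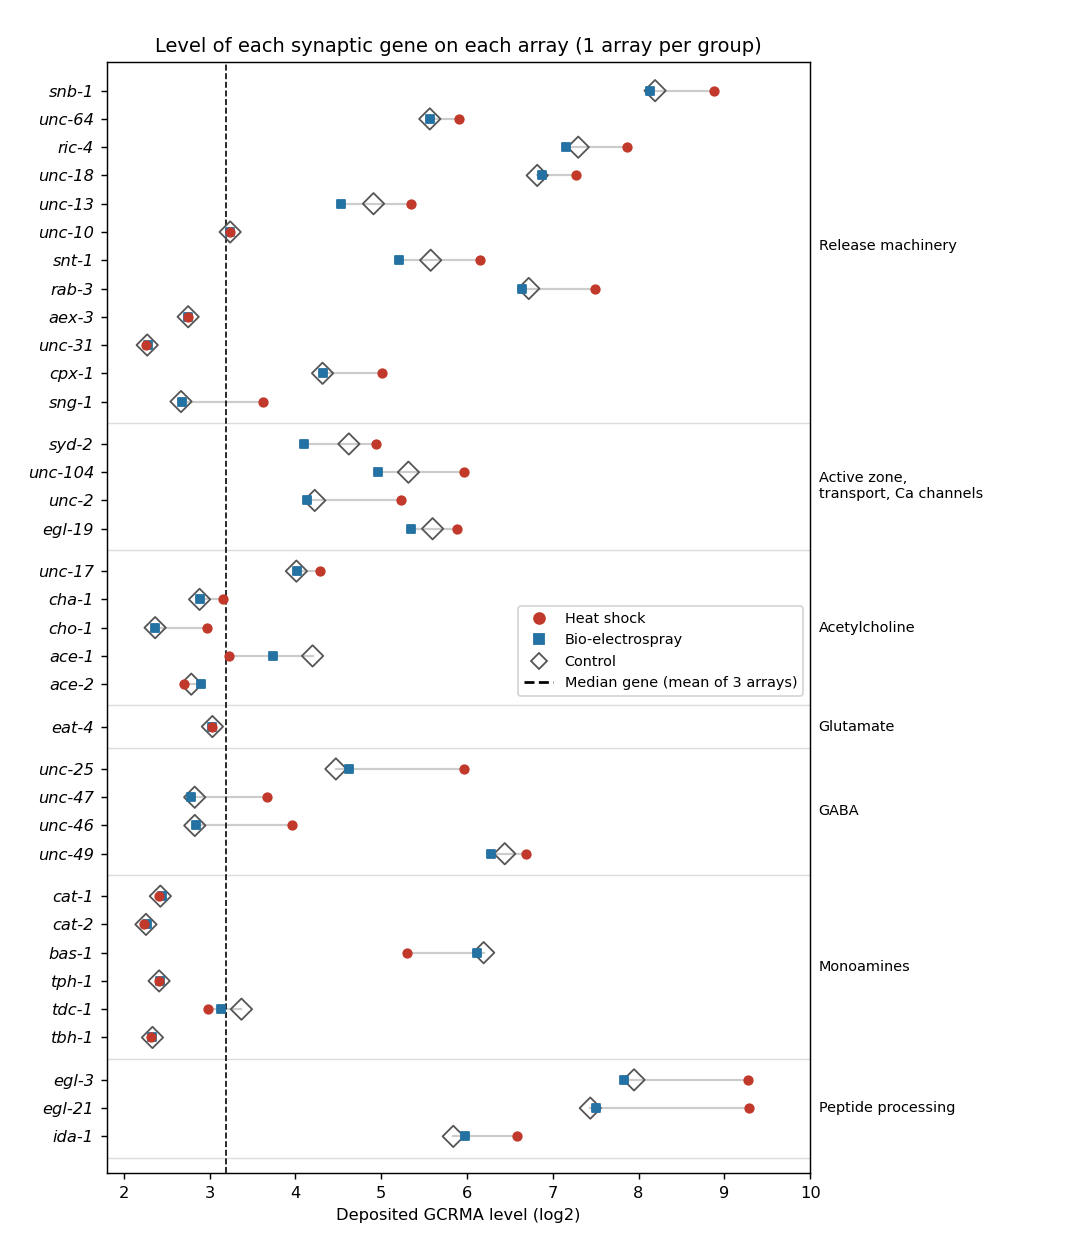
Level of each of the 35 synaptic genes (deposited GCRMA value, log2; 1 point per array) on the heat shock, bio-electrospray and control arrays, grouped by role; the dashed line is the filter at 3.19. The heat shock points of egl-21 and egl-3 stand at 9.28 and 9.27, right of their other points, while those of bas-1 and ace-1 stand left of theirs; near the floor the 3 points coincide.

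The core SNARE genes were all higher on the heat shock array, each by less than 2-fold on its brightest probe set; the mean over both probe sets of snb-1 was past it, at 1.02. The vesicle SNARE synaptobrevin, snb-1, had a level of 8.88 after heat shock, 8.13 after bio-electrospray and 8.19 in the control, a heat shock difference from control of 0.69. Syntaxin, unc-64, its partner in the plasma membrane, had 5.90, 5.57 and 5.57 in the same order (0.33). The SNAP-25 gene ric-4, which supplies the remaining SNARE helices, had 7.86, 7.16 and 7.30 (0.56). On the brightest probe sets of these genes the sprayed and untreated larvae lay close together and the heated larvae stood apart. Second probe sets put the sprayed larvae further from the control, at −0.31 for ric-4 and 0.22 for snb-1. The syntaxin-binding protein gene unc-18 had a level of 7.27 after heat shock, 6.88 after bio-electrospray and 6.82 in the control (0.45).

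Proteins that prime vesicles, sense calcium or mark the vesicle membrane showed the same order on most probe sets. The Rab GTPase gene rab-3 was at 7.50 after heat shock, 6.64 after bio-electrospray and 6.72 in the control, a heat shock difference from control of 0.78. Complexin, cpx-1, which clamps and promotes SNARE-driven fusion, was at 5.01, 4.32 and 4.32 in the same order (0.70). The calcium sensor synaptotagmin, snt-1, was at 6.16, 5.21 and 5.58 (0.58), and here the sprayed larvae lay below the untreated ones. The priming factor gene unc-13 had the same pattern at 5.35, 4.53 and 4.91 (0.44). The synaptogyrin gene sng-1, for a vesicle membrane protein, had a level of 3.62 after heat shock against 2.68 after bio-electrospray and 2.67 in the control; its difference of 0.96 starts near the floor, and adding 16 to each linear value left 0.34.

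A further 3 genes of the release machinery showed no difference. The brightest probe sets of the active zone scaffold gene unc-10 (RIM) and of aex-3, the exchange factor that activates RAB-3, read exactly the same value on all 3 arrays, 3.24 and 2.75. The probe set of unc-31, the CAPS gene for dense-core vesicle release, was at 2.25, 2.29 and 2.27 on the heat shock, bio-electrospray and control arrays. Levels this close to the floor say little about the transcripts. A dimmer probe set of unc-10 differed from its brightest, at 3.37 on the heat shock array against 2.38 after bio-electrospray and 2.48 in the control. Of the 12 release genes, 9 passed the filter, and their median difference between heat shock and control was 0.56.

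The brightest probe sets of the 4 active zone, transport and channel genes were higher after heat shock than in the control. After bio-electrospray they read −0.53 to −0.09 from the control, which none of their further probe sets repeated: these gave 0 for syd-2, 0.01 for unc-104, 0.06 for the second of unc-2, and 0.01 for egl-19 at the floor. The gene for the presynaptic calcium channel subunit UNC-2 had a level of 5.23 after heat shock, 4.14 after bio-electrospray and 4.23 in the control. Its heat shock difference from control of 1.01 lay just past 2-fold, and 8.46% of all genes above the filter had a larger one. The kinesin gene unc-104, whose motor carries synaptic vesicle precursors along axons, was at 5.97, 4.97 and 5.32 in the same order (0.65). The liprin-α gene syd-2, which organises the active zone, was at 4.94, 4.10 and 4.62 (0.32). The L-type calcium channel gene egl-19, which also acts in muscle, was at 5.88, 5.35 and 5.60 (0.28). The median heat shock difference over these 4 genes was 0.48.

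Acetylcholine genes differed in sign after heat shock. The vesicular acetylcholine transporter gene unc-17 and the choline acetyltransferase gene cha-1, which share a locus in the worm, each read 0.28 higher on the heat shock than on the control array: unc-17 was at 4.29, 4.02 and 4.01 on the heat shock, bio-electrospray and control arrays, and cha-1 at 3.16, 2.89 and 2.88. All 3 levels of cha-1 lay below the filter; adding 16 to each linear value left 0.09, and its second probe set, at the floor, differed by 0.005. The choline transporter gene cho-1, which returns choline to the terminal, was at 2.97, 2.37 and 2.37 (0.60), all below the filter. With 16 added to each linear value its difference was 0.17. In the other direction ace-1, whose enzyme breaks down acetylcholine, had 3.23 after heat shock, 3.74 after bio-electrospray and 4.20 in the control. The difference of −0.97 between heat shock and control was 0.510 as a ratio, and 8.93% of all genes above the filter had a lower one. Its heat shock level lay close to the filter, and adding 16 to each linear value left −0.44. The second probe set of ace-1 lay below the filter and gave 3.05 after heat shock and 3.05 in the control, so the mean over both was −0.49. The other esterase gene, ace-2, differed by −0.08 near the floor (2.70, 2.90 and 2.79 on the heat shock, bio-electrospray and control arrays).

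The vesicular glutamate transporter gene eat-4 read 3.03 on all 3 arrays, and its second probe set read 2.43 on all 3. Both lie near the floor, so glutamate neurons cannot be followed through this gene here.

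The GABA synthesis gene unc-25 had the largest difference among the genes of small-molecule transmitters. The level of unc-25, whose product makes GABA from glutamate, was 5.97 after heat shock, 4.63 after bio-electrospray and 4.47 in the control. Its heat shock difference of 1.496 was exceeded by 3.97% of all genes above the filter. The vesicular GABA transporter gene unc-47 was at 3.67, 2.78 and 2.83 in the same order (0.84). For unc-46, which encodes a membrane protein needed to bring that transporter to synaptic vesicles, the level was 3.96 after heat shock, 2.84 after bio-electrospray and 2.83 in the control. The heated larvae thus stood above both other groups for these 3 presynaptic GABA genes. For unc-47 and unc-46 the other 2 arrays lay near the floor, and adding 16 to each linear value left differences from control of 0.31 and 0.45, against 1.04 for unc-25. The GABA-A receptor gene unc-49, which acts in body wall muscle, was at 6.69, 6.28 and 6.44 on the heat shock, bio-electrospray and control arrays, a heat shock difference from control of 0.25.

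None of the 6 monoamine genes stood above the control after heat shock. The aromatic amino acid decarboxylase gene bas-1, needed for both serotonin and dopamine, was the only one above the filter. It had 5.30 after heat shock, 6.12 after bio-electrospray and 6.19 in the control. The heated larvae stood apart from the others, with a difference from control of −0.89, and 10% of all genes above the filter had a lower one. The tyrosine decarboxylase gene tdc-1, which makes tyramine, was at 2.99 after heat shock, 3.13 after bio-electrospray and 3.37 in the control (−0.38). The other 4 genes lay at the floor with heat shock differences from control between −0.02 and 0: the vesicular monoamine transporter gene cat-1 (2.41, 2.44 and 2.43 on the heat shock, bio-electrospray and control arrays), the tyrosine hydroxylase gene cat-2 (2.24, 2.27 and 2.26), the tryptophan hydroxylase gene tph-1 (2.41, 2.42 and 2.41) and the octopamine synthesis gene tbh-1 (2.32, 2.33 and 2.33).

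Neuropeptide processing gave the largest difference of the set. EGL-3 cuts peptide precursors at basic residues and EGL-21 trims the exposed ends. The level of egl-21 was 9.28 after heat shock, 7.50 after bio-electrospray and 7.44 in the control. That of egl-3 was 9.27, 7.83 and 7.95 in the same order. Both genes were bright on every array, and the heated larvae stood well apart from the other groups. The heat shock differences from control were 1.85 and 1.33, which 2.52% and 5.16% of all genes above the filter exceeded. The dense-core vesicle membrane protein gene ida-1 was at 6.58 after heat shock, 5.98 after bio-electrospray and 5.84 in the control (0.74). The median over these 3 genes was 1.33, against 0.56 over the 9 release genes above the filter. The further lists below did not repeat this contrast. Their medians above the filter were 0.45 over 12 peptide processing genes and 0.48 over 27 vesicle cycle and active zone genes. With 1 array a group the difference between the classes was not tested. The plot of differences by role sets the classes beside all genes.

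**Figure D2:**
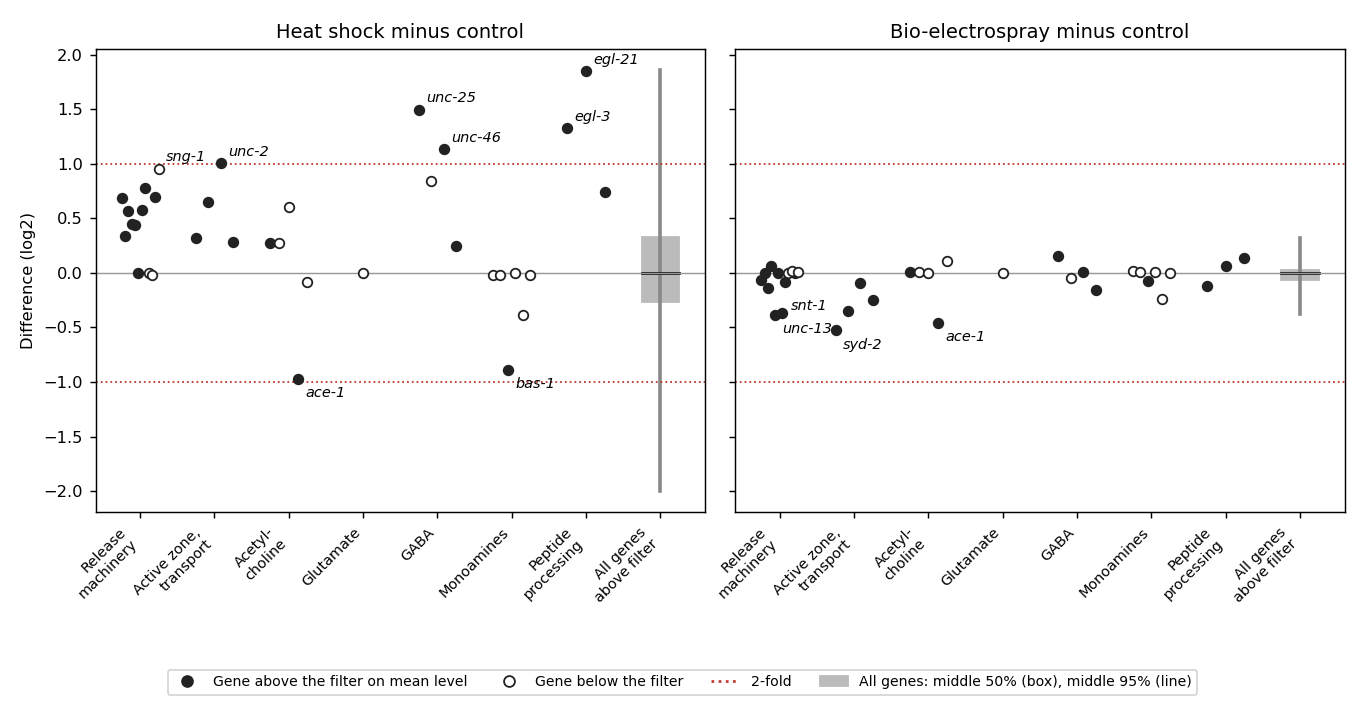
Difference in level (log2) from control for each of the 35 genes, by role: heat shock minus control (left) and bio-electrospray minus control (right). Filled points are genes above the filter on mean level and open points genes below it; at the right of each panel the box and line give the middle 50% and 95% of all 8559 genes above the filter. After heat shock 5 genes lie above the 2-fold line and none below its negative, and after bio-electrospray every point lies between −0.53 and 0.15.

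Other probe sets of the same genes gave a view of the measurement that does not depend on the brightest one. The genes had 65 probe sets in all, 13 genes having 1 and 22 having more. Of the 30 beyond the brightest, 15 lay above the filter. All 15 were higher on the heat shock than on the control array, and 6 of them were at least 2-fold higher. In 11 of the 15 the difference was larger than on the brightest probe set. That of snb-1 was 1.35 against 0.69 on the brightest, that of rab-3 1.22 against 0.78, and that of snt-1 1.05 against 0.58. The second probe sets of egl-3 (1.14) and ida-1 (1.14) and another of unc-2 (1.47) were the remaining ones past 2-fold. Probe sets of a gene share the RNA sample and the array, so their agreement says nothing of other cultures. The same counts over further probe sets of all genes were not made, so these counts have no background beside them. Of the 15 further probe sets below the filter, 13 lay within 0.1 of the control, among them 2 of unc-2 and 2 of unc-49. The brightest probe sets of 12 genes, egl-21, rab-3 and unc-13 among them, have names that mark them as possibly shared between transcripts. Most of the 15 further probe sets above the filter have such names too, among them all those past 2-fold except that of unc-2.

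**Figure D3:**
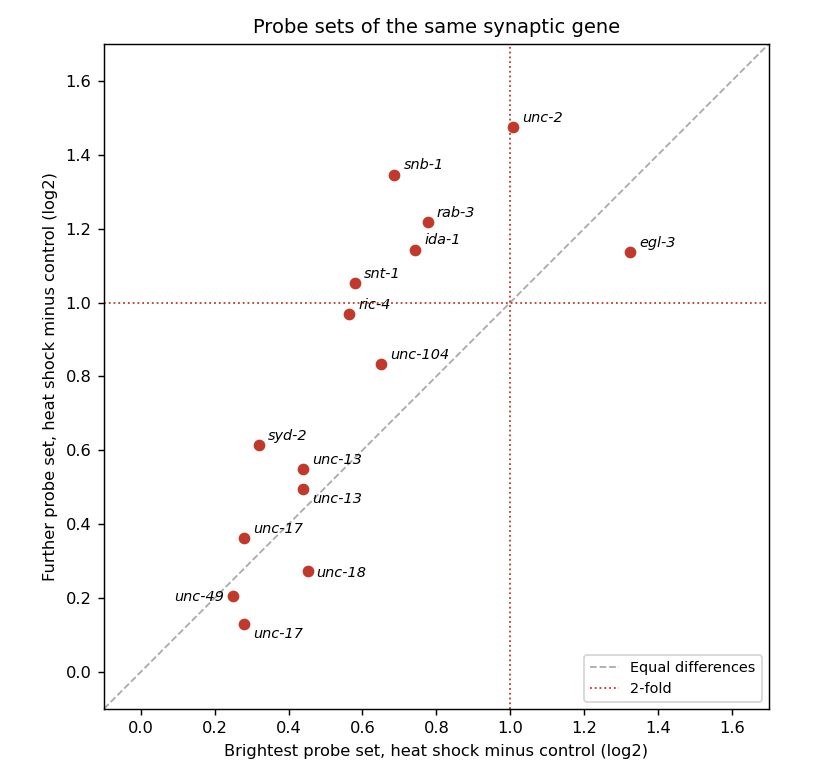
Heat shock minus control (log2) on a further probe set (vertical axis) against the brightest probe set of the same gene (horizontal axis), for the 15 further probe sets above the filter on mean level; dotted lines mark 2-fold. All 15 points lie above 0 on both axes, and 11 lie above the dashed line of equal differences.

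After bio-electrospray no synaptic gene was 2-fold or even 1.5-fold from the control. Among all genes above the filter 0.257% were 2-fold higher and 0.0351% 2-fold lower, so a count of 0 in 22 is near the background. At 1.5-fold the shares of all genes were 0.806% higher and 0.526% lower. The differences ran from −0.53 for syd-2 to 0.15 for unc-25, and by sign 13 of the 22 genes above the filter were lower and 7 higher, against 37% and 34.2% of all genes. Their median was −0.08, against 0 over all. After syd-2 the lowest were ace-1 (−0.46), unc-13 (−0.38), snt-1 (−0.37), unc-104 (−0.35) and egl-19 (−0.25). A difference lower than that of syd-2 was found in 0.748% of all genes above the filter, and one lower than that of ace-1 in 1.48%. Second probe sets did not repeat the deficits of syd-2 (0), unc-104 (0.01) and ace-1 (0.09, below the filter), nor did that of egl-19 at the floor (0.01), while those of unc-13 gave −0.31 and −0.10 and that of snt-1 −0.10. The peptide genes egl-21 (0.06), egl-3 (−0.12) and ida-1 (0.14) lay close to the control.

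Set directly against the sprayed larvae, heated larvae had the same 5 genes past 2-fold: egl-21 (1.78), egl-3 (1.44), unc-25 (1.34), unc-46 (1.12) and unc-2 (1.10). Of all genes above the filter 8.47% were 2-fold higher in this comparison and 8.09% 2-fold lower. Of the 22 synaptic genes 5 were higher and 0 lower. One of these 5, unc-46, again passed the filter only through its heat shock level. Over all 35 genes 5 (14.3%) were 2-fold higher and 0 lower, where 4.64% and 4.08% of all 17118 genes were. Just short of the line lay unc-104 (0.998) and snt-1 (0.95), both of which had been lower after bio-electrospray than in the control. At 1.5-fold 14 of the 22 were higher and 1, bas-1, was lower, against 17.3% and 14.6% of all genes. The comparison uses the same heat shock array as the one with the control, so the pair are not separate evidence.

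Other genes of the pathway were read from 3 lists. Of 31 vesicle cycle and active zone genes 27 passed the filter. Among them 2 were at least 2-fold higher on the heat shock than on the control array and 0 lower, where 8.58% and 8.56% of all genes were, so the higher count is near the background. The median was 0.48, and 0.43 over all 31. These were syd-1 (1.12), an active zone assembly gene, and unc-79 (1.004), for a subunit of a sodium leak channel; unc-80, for another subunit of that channel, was at 0.91 and the active zone gene cla-1 also at 0.91. Among 14 further genes of peptide processing and dense-core vesicles, 12 passed, 2 were 2-fold higher and 0 lower, and the median was 0.45, or 0.34 over all 14. The higher ones were pghm-1, for a peptide-amidating enzyme, at 7.92 after heat shock, 6.17 after bio-electrospray and 6.27 in the control (1.65), and sbt-1, for the chaperone of EGL-3, at 9.12, 7.66 and 7.76 (1.36). Next came ric-19 (0.84) and tbc-8 (0.62), the latter past the filter only through its heat shock level.

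The list of transmitter reuptake, cofactors and breakdown differed in sign. Of its 19 genes 14 passed the filter; 0 were 2-fold higher, 2 were 2-fold lower and the median was −0.04. Against the shares of all genes these counts are near the background. The lower ones were the monoamine oxidase genes amx-3 (−1.62) and amx-2 (−1.15). The level of amx-3 was 2.72 after heat shock, 3.35 after bio-electrospray and 4.34 in the control, so it was lower in both treated groups. The organic cation transporter gene oct-1 was at −0.89, below the filter. The plasma membrane GABA transporter gene snf-11 was higher, at 6.13 after heat shock, 5.26 after bio-electrospray and 5.18 in the control (0.95).

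Marker genes of other cell types differed on the heat shock array too. Of 13 neuron markers outside the 35 genes 10 were higher after heat shock than in the control and 3 lower, none by 2-fold, with a median of 0.49. By sign 27.8% of all 17118 genes were higher and 58.6% lower, and 4.69% and 4.33% were so by 2-fold. Above the filter 42.6% of all genes were higher and 42.3% lower by sign, and 8.58% and 8.56% were so by 2-fold. The 9 above the filter differed by 0.41 to 0.95, and the gene at the low end, che-3, passed it through its heat shock level. The pan-neuronal gene unc-119 was at 4.16 after heat shock, 3.37 after bio-electrospray and 3.20 in the control, and the touch neuron tubulin gene mec-7 at 7.84, 7.07 and 6.94. The neuronal genes rgef-1 (−0.03) and unc-33 (−0.03) and the cilium gene osm-6 (−0.003) lay at the floor on all 3 arrays. As log2 of the summed linear levels, the 13 neuron markers had 9.70 after heat shock, 9.07 after bio-electrospray and 9.01 in the control. These sums rest mostly on the bright genes mec-7, unc-14, unc-76 and mec-17, at 7.84, 7.37, 7.29 and 7.14 after heat shock. For 10 germ line markers the sums were 8.85, 9.86 and 9.90, and 8 of the 10 were at least 2-fold lower after heat shock than in the control (median −1.78). Sums for 6 pharynx markers were 8.81, 9.57 and 9.67, with 2 genes 2-fold lower, myo-1 (−1.29) and tnt-4 (−1.01), and a median of −0.48. By sign 4 of the 6 were lower and 2 higher, namely pha-4 (0.57) and ceh-22 (0.06). The 8 hypodermis markers were mixed: their sums of 9.79, 10.31 and 10.34 follow the bright collagen gene rol-6 (−1.74), whereas lin-26 (1.03), nhr-25 (0.67) and elt-3 (0.55) were higher after heat shock, and the median was −0.07. For the 10 intestine markers the sums of 12.89, 12.92 and 12.87 rest on the brightest gene, asp-1 (0.30), while ges-1 (−1.38), pept-1 (−1.26) and spl-1 (−1.01) were at least 2-fold lower after heat shock than in the control; the median was −0.13. The 10 body wall muscle markers summed to 13.68, 13.79 and 13.81, with 1 gene 2-fold lower, a count near the background. The 6 glia markers summed to 6.61, 6.65 and 6.70, with none 2-fold apart. The 3 coelomocyte markers were higher after heat shock (6.14, 4.64 and 4.65). Of them lgc-26 (4.53, 2.81 and 2.81) passed the filter only through its heat shock level, and unc-122 did not pass it. The part of these shifts between tissues in the synaptic differences was not tested.

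**Figure D4:**
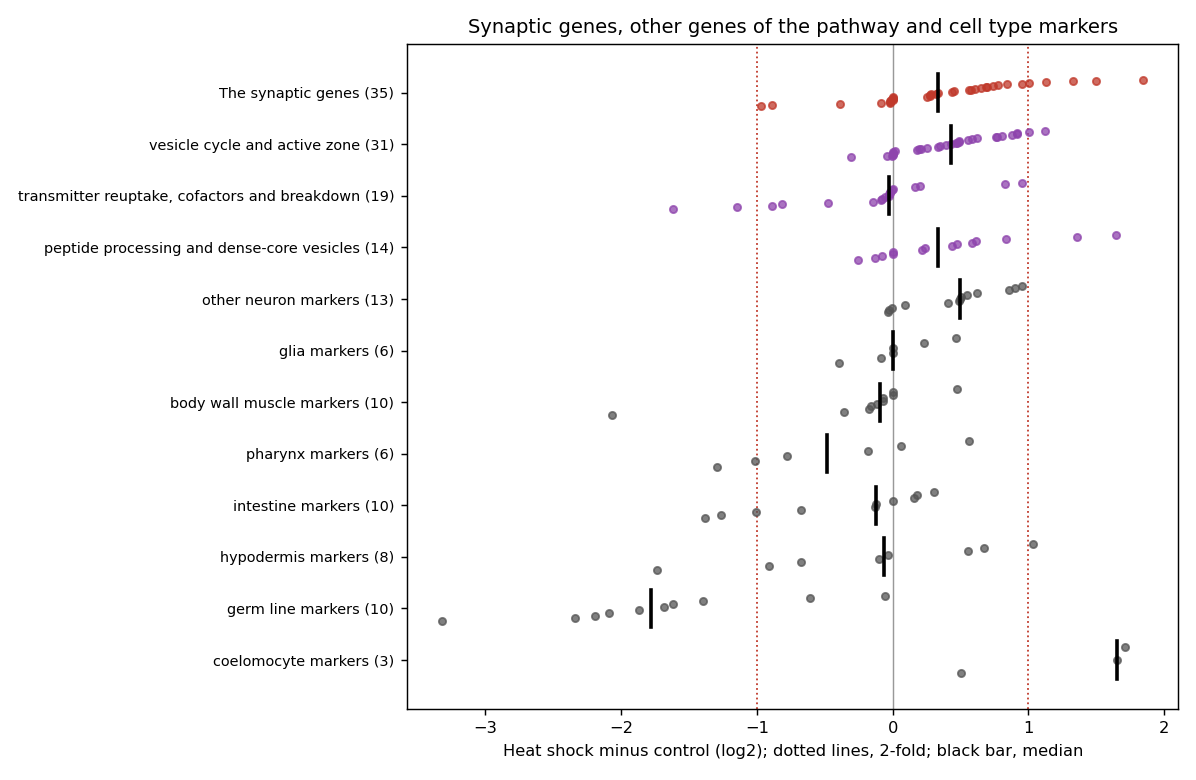
Heat shock minus control (log2) for each gene of the synaptic set, of 3 lists of other pathway genes and of 8 lists of cell type markers; each point is a gene, black bars are medians over all genes found, and dotted lines mark 2-fold. The synaptic genes, vesicle cycle genes, peptide processing genes and other neuron markers have medians of 0.33 to 0.49, and the germ line markers lie lowest at −1.78.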

How the data were processed

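Whole L1 larvae were measured in 3 groups (heat shock, bio-electrospray, control), 1 Affymetrix array each, from 200 ng of total RNA per the labels' protocols. The deposited values are GCRMA levels, per the submitters' processing notes, with version, options and build not given in the sources used here; the log2 scale of the deposited values was inferred from their range. Depth is not defined for arrays, and their number limits the precision. Of 22625 probe sets, 20766 had 1 gene symbol in the platform annotation, 887 several and 972 none; genes were named only from the first kind, which 4 of the 134 further names listed lacked. The columns that belong to no sample numbered 0.

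Levels were subtracted between arrays, with no test. Differences of at least 2-fold were counted among genes whose mean level over the 3 arrays passed percentile 50, and set beside all genes. Every one of the 35 genes was named, with up to 4 of each further list by size of difference; the other marker genes named were chosen after their values were seen. Members and lists were chosen with earlier results of these data known. The counting step was tested on simulated data. Alternatives covered scaling, filters, an offset of 16, probe set choice and fold thresholds. Python 3.11.15, numpy 2.4.6, pandas 2.3.3, statsmodels 0.14.6 and matplotlib 3.10.9 were used.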

Additional observations from a re-analysis of the deposited data

How the results depend on the processing

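With 1 array per group, no setting gives a replicate check, and no paired analysis was possible because no group has a second sample. A median was taken as moved when it changed by more than 0.18, the SD of bio-electrospray minus control over all genes above the filter, and a count when it changed by more than 1.5 times. Centring each array on the median level of its spike-ins, which differs from the median of their differences, raised all genes above the filter by 0.74 for heat shock minus control, 0.24 for bio-electrospray minus control and 0.51 for heat shock minus bio-electrospray; relative to that shift the differences are as before. On that scale 18 of 22 genes were 2-fold higher after heat shock than in the control, where 28.1% of all genes were and 3.47% were 2-fold lower, and 15 were higher than after bio-electrospray (19.9% and 4.33% of all). Its medians for heat shock minus control were 1.31 over all, 1.31 for release, 1.23 for active zone, 0.40 for acetylcholine, 1.87 for GABA, −0.15 for monoamines and 2.07 for peptide processing; bio-electrospray minus control gave 0.16 and heat shock minus bio-electrospray 1.23.

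Counts of 2-fold higher genes for heat shock minus control were 3 after quantile normalization, 3 with the offset, 2 of 13 above percentile 75, 10 at 1.5-fold and 1 at 3-fold. The shares of all genes in these settings were 8.14%, 4.6%, 7.45%, 16.8% and 3.62%. For heat shock minus bio-electrospray the counts were 2 with the offset, 2 above percentile 75, 14 at 1.5-fold and 1 at 3-fold. There the shares of all genes were 4.28%, 7.31%, 17.3% and 3.38%. Counts of lower genes became 1 (ace-1) under quantile normalization and under median centring and 2 at 1.5-fold for heat shock minus control, and 1 at 1.5-fold for heat shock minus bio-electrospray. The shares of all genes lower were 8.84%, 9.11%, 15.4% and 14.6% in the same order. Without the filter the medians were 0.33 and 0.53 for these comparisons, and the offset gave 0.50 for the last. Class medians for heat shock minus control rest on few genes. Acetylcholine (−0.35 over 2 genes) gave 0.28 over 5 genes without the filter, −0.15 with the offset and −0.11 over the mean of probe sets. Without shared probe sets it gave −0.97, from ace-1 alone. GABA (1.13 over 3, the value of unc-46) gave 0.45 with the offset. It gave 0.85 with quantile normalization and 0.80 over the mean of probe sets, each over 2 genes, as unc-46 fell below the filter. Above percentile 75 it gave 0.25, from unc-49 alone. Monoamines (−0.89, bas-1 alone) gave −0.018 over 6 genes without the filter and −0.69 with the offset. With the filter on either array and without shared probe sets tdc-1 joined bas-1, and each gave −0.64. Where the genes changed, the median was thus taken over another set of genes. The cause of the remaining moves was not tested. In the settings run other than spike-in centring that measured them, egl-21 (1.76 to 1.91), egl-3 (1.23 to 1.40) and unc-25 (1.04 to 1.496) were at least 2-fold higher after heat shock than in the control; unc-46 was so in 4 of 6, unc-2 in 2 of 6 and snb-1 in 1 of 6 (1.02 over the mean of probe sets).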
